A study of Mus musculus with 17 samples.

Results

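The acute response of mouse small intestinal organoids to KPT-330 was followed at day 0.25 and day 1 by setting organoids that received 160 nM KPT-330 on top of ENR+CD against organoids in ENR+CD alone. These 4 libraries, 1 for each condition and day, are part of a Seq-Well S3 series of 17, a method that pairs single cells with barcoded beads in small wells and tags each captured transcript with a unique molecular identifier (UMI). The comparison held 3700 of the 19877 cells that the authors kept, namely 1141 control and 936 KPT-330 cells at day 0.25 and 806 control and 817 KPT-330 cells at day 1. All organoids were grown from crypts of male and female C57BL/6 mice without a transgene, 1 to 6 months old, and had first been enriched for stem cells in ENR+CV, which is EGF, Noggin and R-spondin 1 with CHIR99021 (a Wnt pathway activator) and valproic acid. ENR+CD keeps CHIR99021 and replaces valproic acid with DAPT, which blocks Notch signalling, so control and KPT-330 organoids share both agents and differ in KPT-330 alone. Each library pooled over 1000 organoids from 4 to 6 culture domes, no animal is named for a library, and 2 ENR+CV libraries at day 0 give the starting levels.

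KPT-330 (selinexor) blocks XPO1, the exportin that carries proteins with a leucine-rich nuclear export signal, and some RNAs, out of the nucleus together with the GTPase Ran. Cargoes of XPO1 include regulators of growth arrest and stress such as p53, FOXO factors and the NF-kappaB inhibitor, so the block changes where such proteins sit before it changes how much of them there is. In the small intestine, stem cells at the crypt base divide rapidly and give rise to absorptive enterocytes and to secretory goblet, Paneth, enteroendocrine and tuft cells, and a Notch block turns the choice towards the secretory side.

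Summed over cells, the libraries held 7982400 and 4570069 UMIs (control and KPT-330, day 0.25) and 4912283 and 3458887 UMIs (day 1). KPT-330 cells were shallower at both days, with a median of 3701 against 5574 UMIs per cell at day 0.25 and 3175 against 4596.5 at day 1, so the main list counts are also given with every cell thinned to 1500 UMIs. Any pair of libraries of the series shared at most 1 barcode, and the median mitochondrial share lay between 12.7% and 14.4% in all 4. The 10 epithelial genes together made up 72.4 to 88.8 UMIs per 10000, while 20 markers of blood, stromal and endothelial cells summed to 0.0875 to 0.161 per 10000, with Cd3g and Hba-a1 at 0 in all 4 libraries. The tuft cell markers, at no more than 0.0713 per 10000, were too low for any of them to be tested.

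Each gene was tested for a KPT-330 effect shared by both days, with day as a term, in edgeR's quasi-likelihood test. Of 11227 genes tested, 557 (4.96%) passed an adjusted p of 0.05, of which 311 (2.77%) were raised and 246 (2.19%) lowered. These 4 libraries leave 1 degree of freedom, and edgeR pooled the spread entirely over genes, with a median biological coefficient of variation of 0.107. When the spread was instead taken from all 17 libraries, of which the duplicates are at days 0, 3 and 6, 10 of 13455 genes (0.0743%) passed for the mean of both days, all raised and all among the 557. DESeq2 on the 4 libraries called 48 genes (0.428%), 41 raised and 7 lowered (0.0623%), again all among the 557. With cells thinned to 1500 UMIs, 147 of 9428 genes were raised and 91 lowered. Whether called or not, 5554 of the 11227 genes were higher with KPT-330 and 5673 lower. Below, a gene is called raised or lowered when it passed in the 4-library test, and those that also passed with the spread of 17 libraries are named first. Where library totals replaced TMM scaling, 620 genes passed, 231 raised and 389 lowered, so the balance of raised and lowered genes depends on the scaling, while the median difference over all genes moved only from -0.00 to -0.07 on the log2 scale.

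The called genes mostly moved in the same direction at both days. Of the 557 genes, 546 had the same sign at day 0.25 and day 1, as did 60.1% of all tested genes, although the choice of genes by the mean of both days favours this. The difference was larger at day 0.25 in 427 of the 557, with a median size of 0.87 on the log2 scale against 0.51 at day 1. Over all 11227 tested genes it was larger at day 0.25 in 6306, with median sizes of 0.24 and 0.20. KPT-330 and control levels in CPM, which are UMIs scaled to a library total of 1000000, did not overlap across days for 427 of the 557, a separation that 29.2% of all tested genes showed. Tested by day with the spread of 17 libraries, 6 genes (0.0446%) passed at day 0.25 and 0 at day 1, where edgeR gave 312 genes at an unadjusted p under 0.05 and DESeq2 called 2, Arrdc3 and Slc16a6. No gene passed for a difference between the days (276 at an unadjusted p under 0.05, and 0 by DESeq2).

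**Figure D1:**
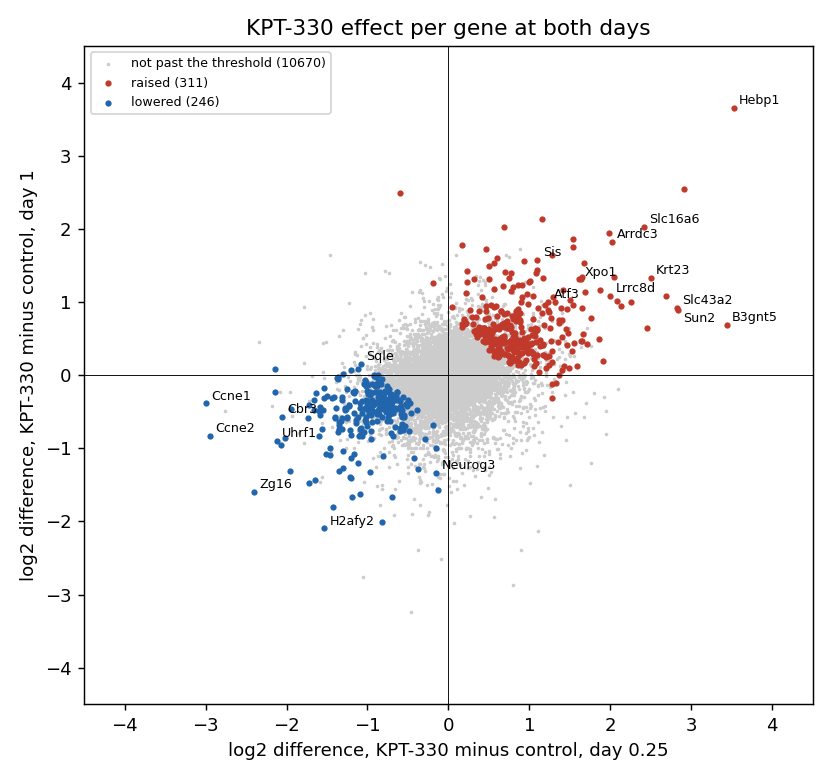
Each point is a gene, with its log2 difference (KPT-330 minus control) at day 0.25 on the x axis and at day 1 on the y axis, in red for the 311 raised genes, blue for the 246 lowered genes and grey for the rest. Hebp1, Slc16a6 and Arrdc3 lie far out along both axes, whereas B3gnt5, Ccne1 and Ccne2 lie far out mainly along the day 0.25 axis.

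Xpo1, which encodes the drug's target, was the first check of the labels and was itself raised. Its level was 169 and 501 CPM in control and KPT-330 organoids at day 0.25, and 107 and 250 at day 1, against 169 and 156 in the 2 ENR+CV libraries. Both KPT-330 libraries were above all control and ENR+CV libraries. The difference over both days was 1.47 ± 0.14 on the log2 scale (SE), and the adjusted p was 0.0173 with the spread of 17 libraries. Each SE of a difference over both days rests on the spread pooled over genes. It does not show how far the 2 days of that gene lay apart. Xpo1 (mm10 chromosome 11, 23256041 to 23298249) was the only raised member of the Ran cycle list, in which 7 of 9 tested genes were lower.

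Next to Xpo1, 9 further genes passed with the spread of 17 libraries. Their differences and SEs are from the 4-library test, as for Xpo1, and their adjusted p-values from the 17-library fit, in which the SEs of the 10 were larger, 0.17 to 0.46. Slc16a6, a member of the monocarboxylate transporter family (chromosome 11, 109450855 to 109473598), went from 50.5 to 264 CPM at day 0.25 and from 47.2 to 182 at day 1, a difference of 2.24 ± 0.15 (adjusted p = 0.00897). Arrdc3, an arrestin-domain adaptor that directs membrane receptors to degradation (chromosome 13, 80883384 to 80896042), went from 50.5 to 200 and from 47.4 to 159, a difference of 1.93 ± 0.15 (adjusted p = 0.00394). For both genes each KPT-330 library stood above each control library and above both ENR+CV libraries, and the log2 differences of the days were close, 2.42 and 2.02 for Slc16a6 and 2.02 and 1.82 for Arrdc3.

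Hebp1, which encodes a heme-binding protein, had the largest difference of the 10, from 1.503 to 20.8 CPM at day 0.25 and from 0.814 to 13.9 at day 1 (log2 difference 3.91 ± 0.38, adjusted p = 0.00897), but the control libraries held only 12 and 4 of its UMIs. Krt23, an epithelial keratin, went from 15.2 to 85.1 and from 20.0 to 47.7 (1.99 ± 0.18, adjusted p = 0.00829). Slc43a2, an amino acid transporter, went from 11.7 to 82.3 and from 40.5 to 72.6 (1.84 ± 0.17, adjusted p = 0.00394). In all 3 genes both KPT-330 libraries stood above the control and ENR+CV libraries, and the control level of Slc43a2 was itself higher at day 1.

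Lrrc8d, a subunit of the volume-regulated anion channel, went from 39.2 to 153 CPM and from 37.5 to 75.2 (1.59 ± 0.16, adjusted p = 0.00897). Sun2, a nuclear envelope protein that ties the nucleus to the cytoskeleton, went from 8.52 to 61.5 and from 11.2 to 20.0 (2.06 ± 0.23, adjusted p = 0.00897). B3gnt5, which makes the core of lacto-series glycolipids, went from 3.26 to 38.1 and from 9.57 to 14.7 (2.20 ± 0.27, adjusted p = 0.0220). In both the difference was larger at day 0.25 than at day 1. P2rx4, an ATP-gated cation channel named here because it completes the 10, went from 23.9 to 68.5 and from 30.3 to 56.1 (1.28 ± 0.17, adjusted p = 0.0227). Slc43a2, Sun2 and B3gnt5 did not pass with DESeq2 on the 4 libraries (adjusted p = 0.970, 0.983 and 1.00), and Slc43a2 and B3gnt5 did not pass with edgeR's robust prior (adjusted p = 0.558 and 0.178). With the replicate number of the labels as a block the 10 were joined by Nr4a1, with an adjusted p of 0.0368.

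**Figure D2:**
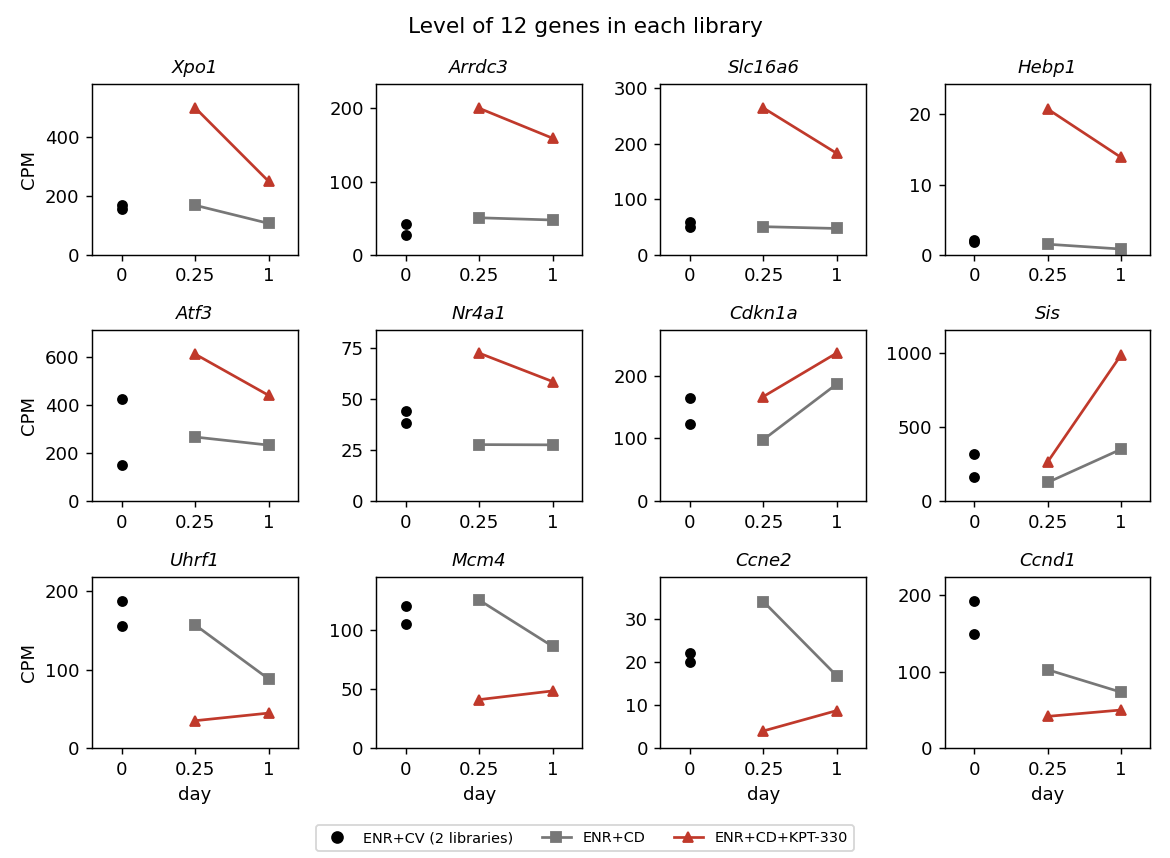
Each panel gives 1 gene's level in CPM (y axis, from 0) against day (x axis, days evenly spaced and not to scale), with 1 point per library, for 2 ENR+CV libraries at day 0 (black circles), ENR+CD (grey squares) and ENR+CD with KPT-330 (red triangles). Xpo1, Arrdc3, Slc16a6 and Hebp1 were above every other library at both days, and for Atf3 the gap between the 2 ENR+CV libraries, 151 and 424, was as wide as much of the KPT-330 difference.

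The lowered genes were led by DNA replication. All 37 tested members of the S phase list were lower and 32 passed the test, with a list median of -0.87 on the log2 scale beside -0.00 over all genes tested. The members together made up 32.7 UMIs per 10000 in control and 14.0 in KPT-330 organoids at day 0.25, and 19.2 and 13.4 at day 1, against 27.0 and 34.4 in the ENR+CV libraries. Both KPT-330 libraries were below both control and both ENR+CV libraries, and the control itself fell from day 0.25 to day 1. In summed libraries fewer cells in S phase and less of these RNAs per cell cannot be told apart. With cells thinned to 1500 UMIs, 21 of the list passed, all lower, with DESeq2 4, and with the spread of 17 libraries none did (Uhrf1, adjusted p = 0.162).

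Uhrf1, which brings the maintenance DNA methyltransferase to newly made DNA (chromosome 17, 56303321 to 56323486), had 157 CPM in control and 34.8 in KPT-330 organoids at day 0.25, and 88.1 and 44.5 at day 1 (-1.54 ± 0.16). Mcm4, a subunit of the replicative helicase (chromosome 16, 15623897 to 15637400), went from 125 to 40.9 and from 85.9 to 48.3 (-1.18 ± 0.16). Ccne2 and Ccne1 encode the E cyclins, which drive entry into S phase, and showed the steepest early fall. Ccne2 went from 33.9 to 3.94 and from 16.7 to 8.67 (-1.98 ± 0.28), and Ccne1 from 44.0 to 5.03 and from 20.2 to 14.5 (-1.70 ± 0.24). By day, the log2 differences were -2.95 and -0.83 for Ccne2 and -2.99 and -0.39 for Ccne1, a gap that the pooled SEs do not show. Rrm2, a ribonucleotide reductase subunit, fell by 1.95 on the log2 scale at day 0.25 and by 0.47 at day 1. Clspn, which links stalled forks to the checkpoint kinase, fell by 1.51 and 1.09, and Hells, a chromatin remodeller that works with DNA methylation, fell by 1.73 and 0.59. Among genes outside the list, Atad2, which encodes a bromodomain ATPase, went from -1.35 at day 0.25 to -0.74 at day 1, and 2810417H13Rik, the PCNA-associated factor, from -1.36 to -0.64.

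The fall reached genes of DNA methylation and chromatin as well, where 5 of 23 tested members were lowered and none was raised (median -0.25). Dnmt1, the maintenance DNA methyltransferase, went from 215 to 98.0 CPM at day 0.25 and from 146 to 100.03 at day 1 (-0.78 ± 0.14). H2afy2, which encodes the histone variant macroH2A2, was low throughout, with 32 and 5 UMIs at day 0.25 and 32 and 4 at day 1 (-2.09 ± 0.53). The remaining ones were Uhrf1, Lmnb1 and Ezh2. With cells thinned 4 of the list were lowered, and with DESeq2 none.

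Genes of G2 and mitosis moved far less. Of 48 tested, 2 were lowered, Pbk, a mitotic kinase (-0.77 ± 0.18), and Kif15, a spindle kinesin (-0.57 ± 0.16), and 0 were raised. The list summed to 61.02 and 48.9 UMIs per 10000 at day 0.25 and to 24.6 and 22.0 at day 1, and its median was -0.09. Mki67, a marker of dividing cells, had 1500 and 960 CPM at day 0.25 and 548 and 448 at day 1, a difference that missed the threshold (-0.41 ± 0.14, adjusted p = 0.0582). Of the S phase list 32 of 37 were lowered and of this list 2 of 48, and no test of that contrast was made. Neither Pbk nor Kif15 was called with cells thinned or with DESeq2.

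Among the G1 regulators, 5 of 19 were lowered and 1 was raised. Ccnd1, which encodes the mitogen-driven cyclin D1 (chromosome 7, 144929931 to 144939925), had 103 and 41.4 CPM at day 0.25 and 73.1 and 49.7 at day 1 (-0.89 ± 0.16). Both KPT-330 libraries were below all others, the ENR+CV libraries at 150 and 193 included. Lowered with it were E2f1, E2f3, Cdk2 and Cdkn2c, the last of which encodes an inhibitor of CDK4 and CDK6. Cdkn1a, the p21 inhibitor, was the raised member, at 98.2 and 167 at day 0.25 and 187 and 236 at day 1 (0.61 ± 0.14), where the control rose as well and the groups overlapped across days. The kinases Cdk4 (-0.23 ± 0.14) and Cdk6 (0.17 ± 0.16) did not pass. The 5 lowered genes became 1 with cells thinned, 1 with all barcodes within the quality limits and 0 with DESeq2.

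Read cell by cell at equal depth, the share of cells with many cycle transcripts was lower with KPT-330. Cells were thinned to 1500 UMIs and counted as high-cycle when they held at least 5 UMIs of the 85 S phase, G2 and mitosis genes, a cut through a continuous range and not a cell type. At day 0.25 they were 78.0% of 1121 control cells (95% Wilson interval 75.4 to 80.3) and 57.2% of 907 KPT-330 cells (54.0 to 60.4). At day 1 they were 34.0% of 794 (30.8 to 37.4) and 27.4% of 767 (24.3 to 30.6). The share was lower with KPT-330 at both days, by 1.40 and 0.45 in log2 odds. The intervals cover counting error only, and the difference, with 1 pair of libraries per day, was not tested. The cut counts the same S phase RNAs, so fewer cycling cells and less of these RNAs per cell cannot be told apart here either. Between 57 and 87 cells per library lay at the cut or 1 UMI below it, and 12 to 50 cells per library were too shallow to be thinned.

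**Figure D3:**
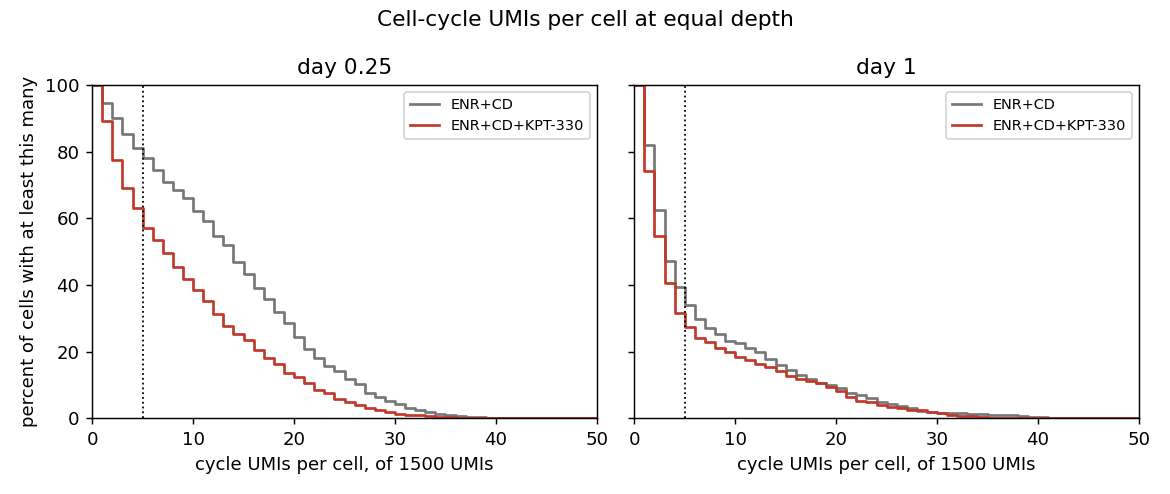
The y axis is the percent of cells in a library that hold at least the number of cycle UMIs on the x axis, after thinning each cell to 1500 UMIs, for ENR+CD (grey) and ENR+CD with KPT-330 (red) at day 0.25 (left) and day 1 (right), and the dotted line is the cut of 5 UMIs. The red curve lies below the grey at the cut at both days, with a gap of 78.0% against 57.2% at day 0.25 and 34.0% against 27.4% at day 1.

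Promoters of the S phase genes are shown because these genes fell together and are classical targets of E2F factors, which bind sites of the form TTTCGCGC or TTTGGCGC. In the 250 bases before the RefSeq transcription start (GRCm38.p6, the mm10 build), read on both strands, 5 of the 30 S phase genes with a promoter in the table held such a site, 16.7%, against 1.44% of all 8401 tested genes with a promoter. The share was 4.37% of the 183 lowered and 1.28% of the 234 raised genes. Of the 8 lowered genes with a site, 5 are the S phase genes just counted, so the lowered share is not separate from theirs. The S phase genes are E2F targets by earlier knowledge, and none of these shares was tested. All 5 genes, Mcm5 and Mcm6 (helicase subunits), Dtl (a ubiquitin ligase adaptor of replication), Pola1 (the primase-associated polymerase) and Rfc3 (a clamp loader subunit), were lowered. Each promoter is written along the direction of transcription with the matching letters, on either strand, in capitals.
Mcm5, mm10 chr8:75109259-75109508, plus strand: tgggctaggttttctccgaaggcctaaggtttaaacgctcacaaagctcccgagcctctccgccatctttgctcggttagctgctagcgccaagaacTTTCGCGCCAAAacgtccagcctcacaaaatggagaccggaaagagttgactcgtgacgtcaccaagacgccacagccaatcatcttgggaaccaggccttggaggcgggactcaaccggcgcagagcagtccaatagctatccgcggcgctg
Mcm6, mm10 chr1:128359706-128359955, minus strand: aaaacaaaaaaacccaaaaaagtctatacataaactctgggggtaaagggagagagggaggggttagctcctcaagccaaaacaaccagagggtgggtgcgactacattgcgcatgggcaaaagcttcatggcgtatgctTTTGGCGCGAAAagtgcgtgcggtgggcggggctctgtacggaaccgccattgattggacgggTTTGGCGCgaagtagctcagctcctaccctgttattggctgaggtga
Dtl, mm10 chr1:191575545-191575794, minus strand: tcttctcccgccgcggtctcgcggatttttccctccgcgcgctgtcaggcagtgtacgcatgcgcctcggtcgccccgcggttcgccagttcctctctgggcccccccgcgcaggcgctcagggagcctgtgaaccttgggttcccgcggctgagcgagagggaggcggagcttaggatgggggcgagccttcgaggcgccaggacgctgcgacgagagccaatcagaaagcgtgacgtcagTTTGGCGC
Pola1, mm10 chrX:93632156-93632405, minus strand: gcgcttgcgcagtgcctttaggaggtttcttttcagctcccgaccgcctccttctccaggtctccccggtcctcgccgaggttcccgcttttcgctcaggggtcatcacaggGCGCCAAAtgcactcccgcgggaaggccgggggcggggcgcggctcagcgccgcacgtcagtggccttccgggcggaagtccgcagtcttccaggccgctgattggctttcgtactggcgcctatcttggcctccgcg
Rfc3, mm10 chr5:151651209-151651458, minus strand: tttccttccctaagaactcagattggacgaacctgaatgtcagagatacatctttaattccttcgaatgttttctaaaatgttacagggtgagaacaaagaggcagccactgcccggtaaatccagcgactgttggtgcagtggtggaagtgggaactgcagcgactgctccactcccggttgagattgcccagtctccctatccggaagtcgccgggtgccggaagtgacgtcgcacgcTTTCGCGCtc

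In Mcm5 and Mcm6 a pair of matches on opposite strands overlapped, 153 and 149 bases before the start in Mcm5 and 110 and 106 bases in Mcm6, which held a further match at 47. In Pola1 the match began 138 bases before the start, and in Dtl and Rfc3 it began at 8 and 10 bases. Such a match is a description of the letters and does not show that a factor binds.

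Immediate early genes, the first to be transcribed after a stimulus, were raised in part. Of 25 tested, 13 were raised and 0 lowered, with a median of 0.60. The list summed to 36.0 and 54.7 UMIs per 10000 at day 0.25 and to 34.1 and 41.2 at day 1. The 2 ENR+CV libraries, labelled as replicates, stood at 31.3 and 61.4, a gap wider than the KPT-330 difference at either day, and the part of such library differences in the result was not tested. The first of them lists 21020 genes, in the range of the libraries of days 0.25 and 1, and the second 16266, in the range of those of days 2 to 6, so replicate and library set cannot be told apart at day 0. With cells thinned to 1500 UMIs, 12 passed, with DESeq2 5, and with the spread of 17 libraries none.

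Atf3, a stress-induced member of the ATF family (chromosome 1, 191170296 to 191218039), had 267 and 611 CPM at day 0.25 and 233 and 440 at day 1, against 151 and 424 in ENR+CV (1.121 ± 0.138). Nr4a1, an orphan nuclear receptor, had 27.8 and 72.6 and then 27.7 and 58.7, against 38.6 and 44.5 (1.31 ± 0.17). Dusp1, a phosphatase that turns off MAP kinases, had 33.1 and 68.3 and then 23.2 and 58.1 (1.23 ± 0.17). For Nr4a1 and Dusp1 both KPT-330 libraries stood above all other libraries. Maff, a small MAF protein, was raised by 1.30 ± 0.22. Fos was raised (0.67 ± 0.14), while Jun (-0.13 ± 0.14) and Egr1 (0.38 ± 0.14) did not pass.

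Of the feedback genes of the ERK pathway, 7 of 20 were raised and only Ccnd1 was lowered (median 0.25). They were Spry1, Areg, Dusp4, Epha2, Dusp5, Hbegf and Dusp6, and 3 were raised with cells thinned and 0 with DESeq2. Areg, an EGF receptor ligand, had 57.4 and 99.8 CPM at day 0.25 and 85.3 and 135 at day 1 (0.79 ± 0.15). Its ENR+CV libraries, at 65.6 and 134, were further apart than control and KPT-330 at either day. Spry1, a feedback inhibitor of the pathway, differed by 1.17 at day 0.25 and by 0.28 at day 1. In the list of YAP targets and regenerative genes, 3 of 14 were raised, Sprr1a, Areg and Cyr61, and the matricellular Cyr61 had 40.0 and 107 and then 91.8 and 134 (1.04 ± 0.15). Edn1, the vasoactive peptide endothelin-1 and in no list, had 107 and 209 at day 0.25 and 104 and 240.5 at day 1 (1.15 ± 0.14), against 35.7 and 114 in ENR+CV.

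Targets of p53 were raised in 6 of 22 and lowered in none. Higher, called or not, were 20 of 22 (median 0.40), beside 5554 of 11227 over all genes. Fas, the death receptor, was at only 7 and 22 UMIs at day 0.25 and 8 and 12 at day 1 (1.88 ± 0.52), and Eda2r, another receptor of that family, at 37 and 63 and then 9 and 23 (1.71 ± 0.36). Pmaip1, which encodes the BH3-only protein NOXA, had 28.6 and 44.6 CPM and then 30.1 and 66.8 (0.95 ± 0.17), and it was the only one of 15 tested Bcl2 family genes to pass. Btg2, Cdkn1a and Ccng1 were the others raised, while Mdm2, the ligase that p53 induces against itself, did not pass (0.15 ± 0.15). Trp53 itself was at 194 and 149 and then 167 and 123, a difference that did not pass (-0.35 ± 0.14, adjusted p = 0.143). With cells thinned, 3 of the list passed, with DESeq2 0 and with the spread of 17 libraries 0.

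Of the integrated stress response, 3 of 26 were raised and 2 lowered (median -0.09), and with cells thinned, as with DESeq2, 2 were raised and 0 lowered. Atf3, Nupr1 and Ppp1r15a, the last of which helps to reverse the translation block, were raised. Nupr1, a stress-induced chromatin protein, differed by 1.24 at day 0.25 and 0.89 at day 1, and Ppp1r15a by 0.77 and 0.41. Lowered were Ddit4, an mTORC1 inhibitor (-0.56 ± 0.14), and Mthfd2, an enzyme of mitochondrial folate metabolism (-0.50 ± 0.16). Ddit3, the factor CHOP (0.62 ± 0.23), Trib3 (-0.82 ± 0.28) and the glutathione-degrading enzyme Chac1 (0.04 ± 0.30) did not pass, and no heat shock gene of 19 did.

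The raised Atf3 and Nupr1 each carry in the 250 bases before their start a site of the form TGATGNAA, which C/EBP and ATF factors bind as pairs. It was held by 9 of 234 raised promoters, 3.85%, by 4 of 183 lowered promoters, 2.19%, and by 1.85% of all. Both matches lie on the strand opposite to transcription and begin 110 bases before the start.
Atf3, mm10 chr1:191183334-191183583, minus strand: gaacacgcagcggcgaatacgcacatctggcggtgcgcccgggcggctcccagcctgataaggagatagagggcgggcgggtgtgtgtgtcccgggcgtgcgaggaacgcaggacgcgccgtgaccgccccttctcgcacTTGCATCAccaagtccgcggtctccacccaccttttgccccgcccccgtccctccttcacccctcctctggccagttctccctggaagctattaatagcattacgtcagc
Nupr1, mm10 chr7:126625471-126625720, minus strand: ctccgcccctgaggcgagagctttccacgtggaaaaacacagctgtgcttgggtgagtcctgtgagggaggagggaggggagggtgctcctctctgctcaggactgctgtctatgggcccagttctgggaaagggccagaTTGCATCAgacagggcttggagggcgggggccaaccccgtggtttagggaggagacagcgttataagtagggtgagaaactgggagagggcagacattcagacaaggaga

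Other motifs were searched in the same way, and TATAAA differed more between raised and all promoters than TGATGNAA did. The AP-1 site TGANTCA was in 8.12% of the raised, 4.92% of the lowered and 4.11% of all promoters. TATAAA was in 14.5%, 6.01% and 6.11%, and CCAAT in 38.5%, 49.7% and 37.1% (19 of 30 S phase promoters). The cyclic AMP element TGACGTCA was in 3.85%, 2.19% and 2.84%, the E-box TCACGTG in 6.84%, 3.83% and 5.26%, and the cell cycle element TTTGAA in 13.2%, 12.02% and 10.2%. These shares were not tested, and of the 311 raised and 246 lowered genes 77 and 63 had no promoter in the table.

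Genes of transport through the nuclear pore had more lower than higher members, where over all genes 5673 of 11227 were lower. Of 21 importins and other exportins, 4 were lowered, Kpnb1, Kpna4, Xpo5 and Ipo5, and 0 raised (median -0.21), with 2 lowered when cells were thinned and 0 with DESeq2. Kpnb1, importin beta (chromosome 11, 97159714 to 97187881), had 744 and 343 CPM at day 0.25 and 381 and 281 at day 1 (-0.72 ± 0.14), both KPT-330 libraries being below all others. In the Ran cycle, Ranbp1, which helps to take cargo off exportins, was lowered (-0.47 ± 0.14), and of 28 nucleoporins 25 were lower but only Rae1 passed, raised by 0.51 ± 0.16. Ribosome biogenesis, whose subunits leave the nucleus with XPO1, had 8 of 39 lowered and 0 raised, with all 39 lower (median -0.27). The 8 became 3 with cells thinned, 2 with all barcodes within the quality limits, 0 with DESeq2 and 14 with library totals. Nolc1, a nucleolar scaffold, led it, at 291 and 156 and then 182 and 118 (-0.70 ± 0.14). Of 73 cytosolic ribosomal protein genes, 1, Rpl38, was lowered and 0 raised (median -0.02). Of 9 tested nucleus-retained and snoRNA-host RNAs, 3 were raised and 0 lowered, with 5 higher and 4 lower (median 0.05). The 3 were Malat1, Cdkn1a and Neat1, and DESeq2 called 1 of the list. Malat1, an RNA kept in the nucleus, had 2123 and 3661 CPM at day 0.25 and 3313 and 5472 at day 1 (0.82 ± 0.14). The ENR+CV libraries stood at 1667 and 1914. Neat1, the RNA of paraspeckles, had 62.5 and 70.9 and then 69.8 and 108 (0.47 ± 0.15), against 92.8 and 110 in ENR+CV. For Malat1 the level also rose in the control between the days, and the thinned counts called it as well.

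Antioxidant genes under NRF2 were lowered in 7 of 22 and raised in 1 (median -0.32). Cbr3, a carbonyl reductase, had 184 and 42.7 CPM at day 0.25 and 170.2 and 108 at day 1 (-1.30 ± 0.15), and both KPT-330 libraries were below all others. Gsta3, a glutathione transferase, had 68.5 and 30.4 and then 73.1 and 29.8 (-1.17 ± 0.17), but the 2 ENR+CV libraries spanned 31.9 to 82.0. Nqo1, a quinone reductase, was lower at day 0.25 (58.6 and 21.7) and near the control at day 1 (43.4 and 39.9). Nfe2l2, which encodes NRF2 itself, was the raised member (0.55 ± 0.14). The 7 lowered genes became 4 with cells thinned and 1 with DESeq2.

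Polyamine genes moved in both directions. Odc1, the rate-limiting enzyme of polyamine synthesis, had 114 and 207 CPM and then 68.4 and 129 (0.95 ± 0.14), and Sat1, which marks polyamines for breakdown, was raised by 1.10 ± 0.17. Oaz1, the antizyme, was raised too (0.67 ± 0.15). Srm, spermidine synthase, was lowered, at 203 and 100 and then 110 and 76.6 (-0.72 ± 0.15). In cholesterol synthesis 2 of 22 were lowered, Sqle and Hmgcs1, with list medians of -0.25 at day 0.25 and 0.14 at day 1, and neither was called with cells thinned or with DESeq2. Lysosomal and autophagy genes were raised in 6 of 30 and lowered in none (median 0.32), with 4 raised when cells were thinned and 0 with DESeq2, and were led by Atp6v1h, a subunit of the proton pump, at 34.0 and 95.4 and then 40.5 and 48.0 (0.99 ± 0.16). Rragd, a Rag GTPase that recruits mTORC1 to lysosomes and in no list, had 43.6 and 106 and then 57.0 and 107 (1.16 ± 0.15), close to the 97.5 and 103 of the ENR+CV libraries. Tight junction genes had all 16 tested members higher, beside 5554 of 11227 over all genes, and 5 raised (median 0.29). With cells thinned 3 were raised and with DESeq2 1. Cldn4 led them, at 154 and 278 and then 174 and 271 (0.81 ± 0.14), but the 2 ENR+CV libraries were themselves far apart, at 77.7 and 197. Of 37 nuclear genes of oxidative phosphorylation none passed, and of 10 mitochondrially encoded genes mt-Nd6 was lowered.

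With the spread of 17 libraries, none of the list members passed for the mean of both days except Xpo1, Arrdc3 and Slc16a6. The remaining lists had few calls. Arrestin-domain and FOXO target genes had 1 of 20 raised, Arrdc3, and NF-kappaB targets 2 of 16, the chemokines Ccl20 and Cxcl16, with 0 lowered in either. Of the genes of ER folding 1 of 24 was raised (Selk), of glycolysis 1 of 19 (Gpi1) and of the BMP and TGF-beta response 1 of 15 (Tgif1). None of 15 histone genes and none of 10 epithelial genes passed. Among 12 genes that the study names in connection with KPT-330, a list chosen on these samples and so not independent evidence, 6 were raised and 2 lowered. They were Xpo1, Slc16a6, Arrdc3, Atf3, Cdkn1a and Tbrg1, a growth regulator at 181 and 363 CPM and then 187 and 301 (0.91 ± 0.14), and Ccnd1 and Kpnb1.

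**Figure D4:**
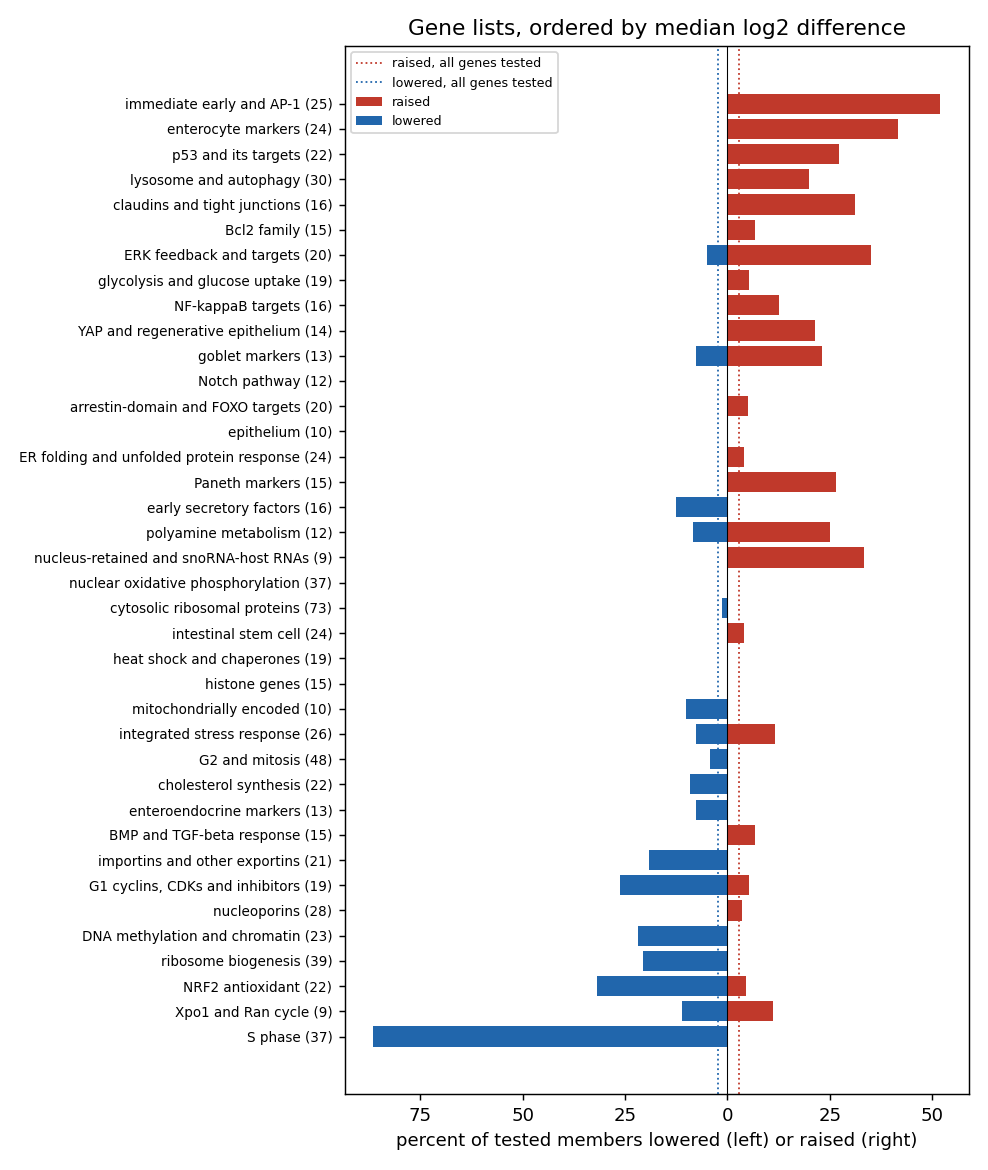
Bars show the percent of tested members of each gene list that were lowered (blue, to the left) or raised (red, to the right), with the number tested in brackets and lists ordered by median log2 difference, and the dotted lines mark the 2.19% lowered and 2.77% raised over all genes. The S phase list reaches 32 of 37 to the left, and the immediate early list 13 of 25 to the right.

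Markers of mature cells were raised in part. The enterocyte list had 10 of 24 raised and 0 lowered, and it summed to 38.6 and 46.5 UMIs per 10000 at day 0.25 and to 66.0 and 114 at day 1, against 63.3 and 60.2 in ENR+CV. With cells thinned 6 were raised and with DESeq2 3. It was 1 of the lists with a larger median at day 1 (0.66) than at day 0.25 (0.21). Sis, the brush border enzyme sucrase-isomaltase, had 127 and 265 CPM at day 0.25 and 351 and 987 at day 1 (1.34 ± 0.14). Slc5a1, the sodium-glucose transporter, differed by 0.91 and 1.23, and Fabp1, a fatty acid carrier, by 0.23 and 1.28. The day 1 control level of Sis was above the day 0.25 level with KPT-330, so the groups overlapped when the days were mixed.

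Among secretory markers, 4 of 15 Paneth genes (Nupr1, Defa17, Mmp7 and Itln1) and 3 of 13 goblet genes (Guca2a, Tff3 and Fcgbp) were raised. With cells thinned 3 Paneth and 3 goblet genes were raised and 0 lowered. With DESeq2 1 of each list was raised, and 1 goblet gene was lowered. Guca2a, the peptide guanylin, had 60.9 and 108 CPM and then 131 and 290.0 (1.05 ± 0.14). Defa17, an alpha-defensin of Paneth cells, had 146 and 398 and then 416 and 422, so its difference was seen at day 0.25 alone. Lyz1, the lysozyme of Paneth cells, did not pass (0.22 ± 0.14), nor did Muc2, the main goblet mucin (0.05 ± 0.28). Zg16, a lectin of goblet mucus, went the other way, at 21.9 and 3.72 and then 23.0 and 6.94, with 175, 17, 113 and 24 UMIs (-2.06 ± 0.29), and the ENR+CV libraries were as low as its KPT-330 libraries, at 1.34 and 5.82.

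Of the early secretory factors 2 of 16 were lowered, Neurog3 and Pax4, and 0 raised, and of 13 enteroendocrine markers Neurog3 alone. With cells thinned 1 early secretory factor and 2 enteroendocrine markers were lowered, and with DESeq2 0 of either list. Neurog3, the transcription factor that starts this lineage, rose in the control from 28.6 to 223 CPM between the days, and with KPT-330 only from 24.9 to 83.0 (-0.84 ± 0.16 over both days, -0.15 at day 0.25 and -1.34 at day 1). The difference between the days had an adjusted p of 1.00 with the spread of 17 libraries. Pax4, which acts downstream of Neurog3, had 15 and 3 and then 55 and 11 UMIs (-1.65 ± 0.48). Of the Notch pathway, 0 of 12 passed, and of 24 stem cell genes 1 did, Slc12a2, a sodium-potassium-chloride cotransporter (0.50 ± 0.14). Lgr5, the stem cell receptor, had 112 and 140 and then 125 and 111 (0.14 ± 0.14, adjusted p = 0.710).

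Fitted within the high-cycle cells alone, with the 85 cycle genes left out, 226 of 10175 genes (2.22%) passed, 146 raised (1.43%) and 80 lowered (0.786%), and within the low-cycle cells 20 of 9955 (0.201%), 15 raised (0.151%) and 5 lowered (0.0502%). Of these, 206 and 20 were among the 557 of all cells, and 17 passed in both classes. The classes were cut on cycle UMIs, which were themselves fewer with KPT-330. A class may therefore hold unlike cells in the 2 conditions, which was not tested. The counts of the classes cannot be compared in size, as the edgeR fits gave unlike p-values to like differences. Atf3 in low-cycle cells, at 0.88 ± 0.16, had an adjusted p of 0.0756. Tbrg1 in high-cycle cells, at 0.82 ± 0.15, had one of 7.41e-05. Raised in low-cycle cells were, among others, Slc16a6 (2.304 ± 0.190), Arrdc3 (2.07 ± 0.19), Xpo1 (1.96 ± 0.21), Hebp1 (4.51 ± 0.48) and Odc1 (1.16 ± 0.17). In high-cycle cells the same genes differed by 2.105 ± 0.167, 1.85 ± 0.16, 1.31 ± 0.15, 3.22 ± 0.51 and 0.92 ± 0.16. Lowered in low-cycle cells were Gsta3, Zg16 and Akr1b8, together with Ces1f and Epb4.2, which are named because the count is 5. The response of Xpo1, Arrdc3 and Slc16a6 was thus present in cells with few and with many cycle transcripts, and the difference between the classes was not tested.

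The same genes were then read in the 11 libraries of days 2 to 6, which share no sample with the early ones and in which 21.2% of 13455 genes passed for the mean of those days, 10.6% raised and 10.6% lowered. Of the 311 early raised genes, 293 were higher at days 2 to 6 and 198 (63.7%) passed as raised, and of the 246 early lowered genes 208 were lower and 114 (46.3%) passed as lowered. Only 1 raised and 3 lowered genes passed in the opposite direction. Xpo1 differed by 1.56 and 1.31 on the log2 scale at days 0.25 and 1 in the fit of all libraries, and by 1.59, 1.82, 1.28 and 1.40 at days 2, 3, 4 and 6. Slc16a6 differed by 2.38 and 2.03, and later by 1.74 to 2.54. These stayed near their early size at every day.

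Other differences were smaller later. Nr4a1 went from 1.38 and 1.17 to values between -0.09 and 0.82. Srm, lowered early by 1.03 and 0.43, lay between -0.03 and 0.32 later. Cyr61 had a mean of -0.00 ± 0.17 over days 2 to 6. The difference between early and late effects passed for no gene in edgeR, with 1057 at an unadjusted p under 0.05, and DESeq2 called 4, Zg16, Lyz1, Chac1 and Igfbp2, which are named for that. Zg16 had fewer UMIs with KPT-330 at days 0.25 and 1 but more at days 2, 3, 4 and 6, for example 60.3 and 234 CPM at day 2 (adjusted p of the difference 0.0606 in edgeR and 2.38e-05 in DESeq2). Its log2 differences at days 2, 3 and 6 were 2.16, 1.61 and 3.02. At day 4 the difference was 8.90, where the control library held only 3 of its UMIs, so the late mean leans on that library. The early libraries list more genes than the later ones, 19823 to 21652 against 15576 to 17849, so days and library sets cannot be told apart in the levels, and only KPT-330 against control of the same day was compared.

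**Figure D5:**
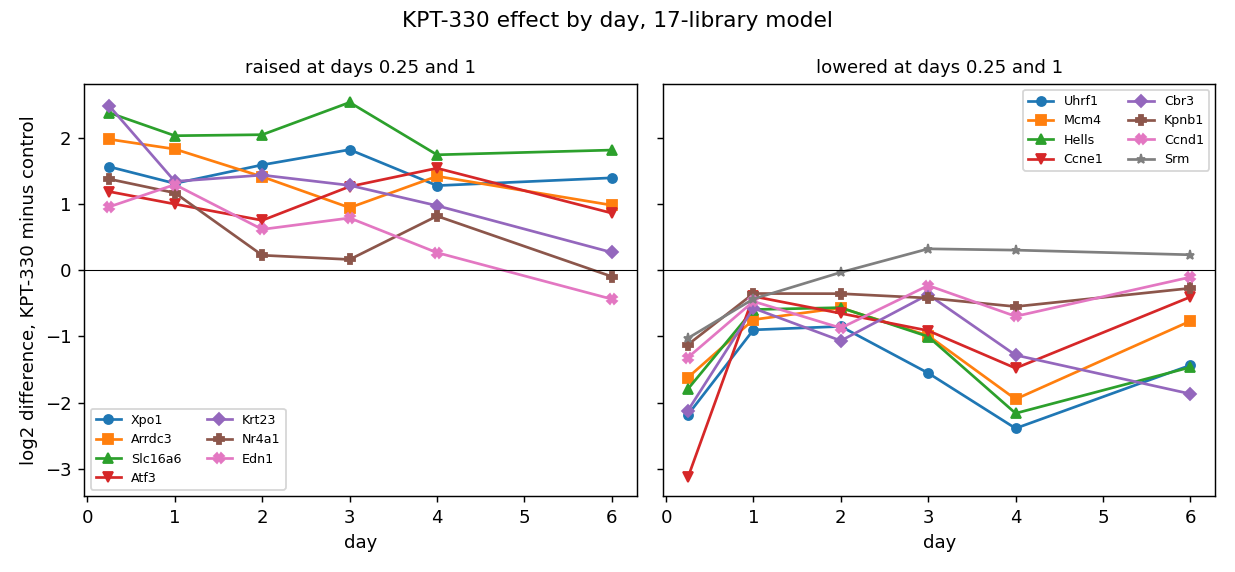
The log2 difference (KPT-330 minus control, y axis) is plotted against day (x axis) for 7 genes raised (left) and 8 lowered (right) at days 0.25 and 1, with values from the fit of 17 libraries and no error bars. Xpo1 and Slc16a6 stay between 1.28 and 2.54 from day 0.25 to day 6, Nr4a1 stands at -0.09 at day 6, and Ccne1 has its lowest value, -3.13, at day 0.25.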

How the data were processed

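The authors demultiplexed reads with bcl2fastq, mapped them with STAR (mm10) and used the Drop-seq pipeline to count distinct UMIs of each cell barcode, and the deposited files hold these UMI counts per gene symbol and cell, without normalization. The deposited merged table served only to name the cells the authors kept. Here the counts of those cells were summed per library and tested in edgeR (version 4.0.16, R 4.3.3) with TMM factors, the filter for low counts of that package, a term for day, a quasi-likelihood test and Benjamini-Hochberg adjustment over all genes, with a threshold of 0.05. A second fit over all 17 libraries had 1 mean per condition and day, which left 4 degrees of freedom from duplicates. The 2 KPT-330 and 2 control libraries cannot give a permutation p below 0.05. In the 4-library test no condition and day has a second library. Its p-values and SEs measure how far the KPT-330 differences varied between the days, pooled over genes. They do not measure how far the 2 days of a single gene differed. Those of the 17-library fit measure spread between duplicate libraries, which may be technical, as no label names separate cultures. Levels are given as CPM, computed here from the raw counts. Positions are from GENCODE vM21. Of 11227 tested genes, 8401 had a RefSeq promoter, of which the first in the table was used.

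The members and gene lists were chosen with earlier results of these data known. Named genes are 12 that the study names in connection with KPT-330, the 15 genes of smallest p in each direction, of those moving alike at both days, and up to 4 of each list in each direction by size of change, of which the text gives a part. A simulation on 11117 genes recovered 65.5% of 197 changed genes in the 4-library test (24.2%, 72.3% and 100% at log2 changes of 0.5, 1 and 2), with 3.73% of calls wrong. With the larger spread of the 17 libraries put into the simulated counts the same test recovered 45.2% on 11107 genes, with 6.32% wrong. The 17-library fit, simulated on 13164 genes, recovered 40.3% of 196 for the mean of both days with 8.14% wrong, 19.9% at day 0.25 with 9.30% wrong and 22.4% at day 1 with 15.4% wrong. In each simulation a changed gene had the same change at every day, and no shift shared by many genes of a library was added. The shares of wrong calls therefore hold for such counts and are not error rates of the calls in the data. DESeq2 1.42.0 and limma 3.58.1 served as alternatives. No doublet caller was run here.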

Additional observations from a re-analysis of the deposited data

Results flagged for a closer look

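Sqle, the squalene epoxidase of cholesterol synthesis, was lower with KPT-330 at day 0.25 and near the control at day 1. Its log2 differences, -1.08 and 0.15, had opposite signs. The day 1 value was below the median size over all tested genes at that day, 0.20. At day 0.25 its level was 385 CPM without and 177 CPM with the drug, and at day 1 it was 253 and 265 CPM. The difference between the days did not pass with the spread of 17 libraries (adjusted p = 1.00), and each day rests on 1 library per condition.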

How the results depend on the processing

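The 557 genes called over both days became 48 with DESeq2, 240 with all barcodes within the quality limits, 238 with cells thinned to 1500 UMIs and 10 with the spread of 17 libraries. The cause was not tested beyond the construction of these alternatives, since thinning leaves fewer UMIs. Leaving out a day left 1 library per condition, so the 4-library test could not be refitted. The single-day tests of the 17-library fit, given above, stand in its place. The other settings gave 467 to 620, of which robust estimation (562) and limma voom (492) were added after seeing the data. The comparison over both days is itself paired by day. All 4 libraries carry the replicate number 1, so that number adds no block within them, and no source says what it marks. With the replicate number as a block in the 17 libraries the count was 11 over both days and 10 at day 0.25 (8 raised, and Ccne2 and Rrm2 lowered) in place of 6. At day 0.25 DESeq2 gave 25 and no filter 94, and at day 1 they gave 2 and 19 in place of 0. For early against late effects DESeq2 gave 4, and 1, Zg16, passed without the day 6 libraries. High-cycle cells gave 69 genes at a cut of 8 UMIs, and low-cycle cells 40 and 35 at cuts of 3 and 8. The log2 odds of high-cycle cells, -0.93 as the mean of both days, ranged from -0.81 to -0.88 at other cuts. Among the 109 named genes Sqle alone changed sign, with -1.13 without day 1 and 0.15, near 0, without day 0.25. With the spread of 17 libraries 96 named genes no longer passed and with DESeq2 72, none with a change of direction.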
